A study of Populus ussuriensis with 8 samples.

Results

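Phenylalanine ammonia-lyase (PAL) removes ammonia from phenylalanine to give cinnamate, and cinnamate 4-hydroxylase (C4H) turns cinnamate into p-coumarate. Together they form the entry into phenylpropanoid synthesis, which feeds lignin, flavonoids and many defence compounds, and in plants PAL transcripts are well known to respond to wounding. PAL is encoded by a small gene family, so the transcript pool can change in size or in which copy supplies it. The 6 loci described here are the 5 poplar PAL loci Potri.006G126800, Potri.016G091100, Potri.008G038200, Potri.010G224100 and Potri.010G224200, and the cinnamate 4-hydroxylase locus C4H1, Potri.013G157900. They were taken as a named list for their place in the pathway, out of 36385 genes listed. The rule uses no measured value, but the list was drawn up with earlier results of these data known. All 6 passed the filter on low values, which 24347 genes passed. The enzyme names come with the list. The deposited files give no gene names, and the assignments could not be checked against sequence here.

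The material was the base of stem cuttings of Populus ussuriensis, grown in vitro and placed after cutting on Murashige and Skoog medium with or without 1 µM MeJA (methyl jasmonate, an ester of the wound hormone jasmonic acid). No genotype or transgene is given. The 4 groups were untreated cuttings at 0.5 h, untreated cuttings at 1 h, MeJA cuttings at 0.5 h and MeJA cuttings at 1 h after cutting, each with 2 libraries. Every group had been cut, and no uncut stem was analysed here, so the values show change between the times and not the response to the cut itself. The labels disagree on the age of the source plants and do not say whether the replicates were separate cultures, so the spread behind the tests below is that between libraries and may be technical. Batches were not given, and a batch shared by all libraries of 1 time cannot be told apart from the time.

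Levels are in FPKM, fragments scaled by transcript length and by library size, which is the unit inferred for the deposited values. The level of a gene is the sum over its transcripts. Changes are differences of log2(FPKM + 1), tested in limma over all 24347 genes and called at an adjusted p under 0.05. Because these are bulk samples, fewer cells that express a gene and less RNA per cell cannot be told apart. The replicate libraries correlated at 0.983 to 0.987 across genes (Spearman), and relative depth lay between 0.933 and 1. Levels were also read for loci of stem tissue, set down from knowledge of Populus trichocarpa, which the files do not annotate. With no other tissue to compare, these levels cannot test the stem label. The summed level of 4 secondary wall cellulose synthase loci of xylem was 274 to 487 FPKM over the 8 libraries, and that of 2 loci of the cambium regulator WOX4 was 9.19 to 28.0 FPKM. None of the 6 was at 0 in any library.

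At 0.5 h after cutting, C4H1 and the PAL loci Potri.016G091100 and Potri.006G126800 were the most abundant of the 6. In untreated cuttings at 0.5 h the order by mean level was C4H1 at 201 ± 9.7 FPKM, Potri.016G091100 at 165 ± 9.5, Potri.006G126800 at 159 ± 11, Potri.010G224100 at 112 ± 10, Potri.008G038200 at 63.9 ± 4.1 and Potri.010G224200 at 15.8 ± 1.4 (SD, n = 2). Only Potri.016G091100 and Potri.006G126800 overlapped between their libraries. In untreated cuttings at 1 h the order had changed to Potri.016G091100 at 432 ± 68 FPKM, Potri.006G126800 at 210 ± 45, C4H1 at 107 ± 0.84, Potri.010G224100 at 70.8 ± 8.5, Potri.008G038200 at 49.3 ± 13 and Potri.010G224200 at 9.84 ± 1.2 (SD, n = 2), with no overlap between neighbours. The order with MeJA was the same as without it at each time. With MeJA, C4H1 overlapped with Potri.016G091100 at 0.5 h, and Potri.010G224100 with Potri.008G038200 at 1 h. Potri.006G126800 and Potri.016G091100 stood above 97.7% and 97.9% of tested genes in every library, whereas Potri.010G224200 stood between the percentiles 54.9 and 71.2. The 6 loci together held 0.119% to 0.173% of the signal listed per library.

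**Figure D1:**
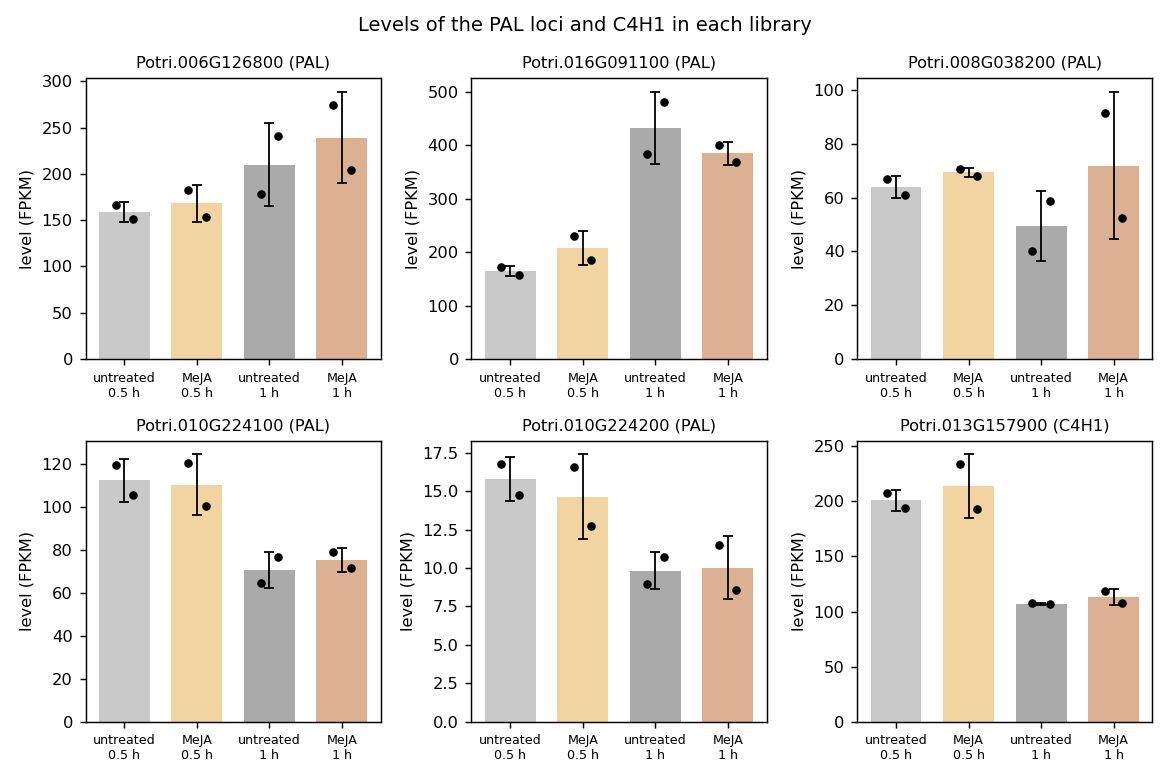
Level in FPKM (vertical axes, each from 0) of the 5 PAL loci and C4H1 in untreated and MeJA cuttings at 0.5 h and 1 h after cutting. Bars are means of 2 libraries, error bars are SD and points are single libraries. Potri.016G091100 was at 158 to 230 FPKM in all 4 early libraries and at 369 to 480 in all 4 late ones, while C4H1 was at 193 to 234 and then at 107 to 119.

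Between 0.5 h and 1 h in untreated cuttings, 1 PAL locus rose, both neighbouring PAL loci of chromosome 10 fell and C4H1 fell. Of the 6 loci, 4 were called, where 48.6% of all tested genes were called. Upward calls made up 1 of the 6, against 15.4% of all tested genes, and downward calls 3 of the 6, against 33.2%. The 2 groups of libraries did not overlap for any of the 6 loci, which was also so for 75.6% of tested genes. The median change of the 6 was -0.51 on the log2 scale and that of all tested genes was -0.19. The counts for 6 loci are thus not far from those of the transcriptome, and it is the size and the opposite directions of the changes at single loci that are described next.

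Potri.016G091100, on chromosome 16, was the PAL locus that rose. It was at 171 and 158 FPKM in the untreated 0.5 h libraries and at 384 and 480 FPKM in the 1 h libraries. The later libraries were both above the earlier ones by a wide margin, a ratio of means of 2.62. The log2 change was 1.38 ± 0.15 (SE; limma adjusted p = 5.13e-05), and 97.1% of tested genes had a lower change. Leaving out each library in turn gave changes of 1.22 to 1.54.

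Potri.006G126800, on chromosome 6, was at 167 and 151 FPKM in the untreated 0.5 h libraries and at 178 and 241 FPKM in the 1 h libraries. The later libraries were higher, but they differed more from each other than the lower of them did from the earlier pair. The log2 change, above that of 84.0% of tested genes, was 0.38 ± 0.18 (SE) and did not pass (limma adjusted p = 0.102). With every library centred to 1 common median it was 0.59 and passed (limma adjusted p = 0.0256), and it also passed without untreated 1 h replicate 1, at 0.60 (limma adjusted p = 0.0404). The proportion of the 2 most abundant PAL loci shifted, without a test of the shift. The ratio of their levels, Potri.016G091100 over Potri.006G126800, was 1.03 and 1.05 in the untreated libraries of 0.5 h and 2.15 and 1.99 in the 1 h libraries. With MeJA the shift was smaller, from 1.26 and 1.20 at 0.5 h to 1.46 and 1.81 at 1 h.

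Potri.010G224100, on chromosome 10, was at 120 and 105 FPKM in the untreated 0.5 h libraries and at 64.8 and 76.7 FPKM in the 1 h libraries. Both later libraries were lower. The locus fell by 0.66 ± 0.13 on the log2 scale (SE; limma adjusted p = 0.00256), and 17.3% of tested genes had a lower change. Potri.010G224200, close to it by identifier and much less abundant, was at 16.8 and 14.8 FPKM and then at 8.97 and 10.7 FPKM. It fell by 0.63 ± 0.17 (SE; limma adjusted p = 0.0106), and 18.8% of tested genes had a lower change. That call was lost after median centring, at -0.42 (limma adjusted p = 0.0661), and without untreated 0.5 h replicate 1 or untreated 1 h replicate 1, at -0.54 (limma adjusted p = 0.0653) and -0.52 (limma adjusted p = 0.0752).

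The 2 chromosome 10 loci kept nearly the same proportion throughout. The level of Potri.010G224100 was 6.89 to 8.34 times that of Potri.010G224200 over the 8 libraries. After each gene was centred on its own mean, their log2 values differed by a root mean square of 0.0769, and of the 15398 other genes that averaged 5 FPKM or more only 0.026% were closer to Potri.010G224100. How reads that match both loci were assigned is not given in the sources used here, so they may not be 2 separate measurements. Summed into 1 feature, the pair was called as lower in both treatments.

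Potri.008G038200, on chromosome 8, was the least settled member. It was at 66.8 and 61.0 FPKM in the untreated 0.5 h libraries and at 40.1 and 58.5 FPKM in the 1 h libraries. The later libraries were lower, 1 of them only slightly, and the log2 difference of -0.39 ± 0.25 (SE) did not pass (limma adjusted p = 0.222). Of tested genes, 33.8% had a lower change.

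C4H1, Potri.013G157900 on chromosome 13, acts directly after PAL. It was at 208 and 194 FPKM in the untreated 0.5 h libraries and at 108 and 107 FPKM in the 1 h libraries. Both later libraries were far below the earlier ones and nearly equal to each other. The locus fell by 0.90 ± 0.12 on the log2 scale (SE; limma adjusted p = 0.000225), and 9.56% of tested genes had a lower change. Of the cellulose synthase list, 4 of 4 loci were called as lower in untreated cuttings (limma, adjusted p under 0.05), and 1 of 4 after median centring. Of all tested genes, 33.2% were called as lower in untreated cuttings before centring. The summed level of the 4 loci went from 399 to 451 FPKM at 0.5 h to 274 to 305 FPKM at 1 h. Both WOX4 loci were called as lower as well, against the same 33.2%, and both still were after median centring. Their sum went from 19.9 to 23.4 FPKM to 9.23 to 9.74 FPKM. The part of a change in tissue make-up in the fall of C4H1 was not tested.

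With MeJA in the medium, the 4 loci called without it were called again in the same directions, and Potri.006G126800 was called as higher. Of the 6 loci 5 were called, 2 upward and 3 downward, and 5 had no overlap between the times, as had 75.2% of tested genes. In all, 43.3% of tested genes were called, 15.2% upward and 28.1% downward. Potri.016G091100 was at 230 and 185 FPKM in the MeJA 0.5 h libraries and at 400 and 369 FPKM in the 1 h libraries. It rose by 0.90 ± 0.15 on the log2 scale (SE; limma adjusted p = 0.000947), a ratio of means of 1.86. C4H1 was at 234 and 193 FPKM and then at 119 and 108 FPKM, and fell by 0.91 ± 0.12 (SE; limma adjusted p = 0.000302). The libraries of the 2 times did not overlap for either gene.

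In MeJA cuttings Potri.006G126800 was at 183 and 154 FPKM at 0.5 h and at 274 and 204 FPKM at 1 h, a rise of 0.50 ± 0.18 on the log2 scale (SE; limma adjusted p = 0.0485). This call lay at the threshold. It was lost without a filter on low values (limma adjusted p = 0.082), with a plain variance prior (limma adjusted p = 0.07), among transcripts (limma adjusted p = 0.052), and without MeJA 0.5 h replicate 1, MeJA 0.5 h replicate 2, MeJA 1 h replicate 1 or either untreated 0.5 h library, where the highest limma adjusted p was 0.306.

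In MeJA cuttings Potri.010G224100 was at 120 and 100.3 FPKM at 0.5 h and at 79.1 and 71.5 FPKM at 1 h. It fell by 0.54 ± 0.13 on the log2 scale (SE; limma adjusted p = 0.00904), a call lost without MeJA 0.5 h replicate 1 (limma adjusted p = 0.0767) or MeJA 1 h replicate 2 (limma adjusted p = 0.0644). Potri.010G224200 was at 16.6 and 12.7 FPKM and then at 11.5 and 8.57 FPKM, and fell by 0.51 ± 0.17 (SE; limma adjusted p = 0.0322). Its call was lost without either of the same libraries, after quantile normalization (limma adjusted p = 0.0743), after median centring (limma adjusted p = 0.112), without a filter (limma adjusted p = 0.0592) and with a plain variance prior (limma adjusted p = 0.0508). Leaving out MeJA 0.5 h replicate 1 lowered the number of called loci with MeJA from 5 to 2, Potri.016G091100 and C4H1, and leaving out MeJA 1 h replicate 2 lowered it to 3.

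In MeJA cuttings Potri.008G038200 was at 70.4 and 68.2 FPKM at 0.5 h and at 91.2 and 52.5 FPKM at 1 h. The libraries of 1 h lay on either side of the earlier ones, and the log2 difference was 0.00 ± 0.25 (SE; limma adjusted p = 0.998). The library that was high for this locus, MeJA 1 h replicate 1, was also the higher of its pair for the other 5 loci. This was not particular to that library. In both groups of 0.5 h, replicate 1 was likewise the higher for every locus, and untreated 1 h replicate 2 was the higher for every PAL locus. The loci thus varied together between replicates.

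**Figure D2:**
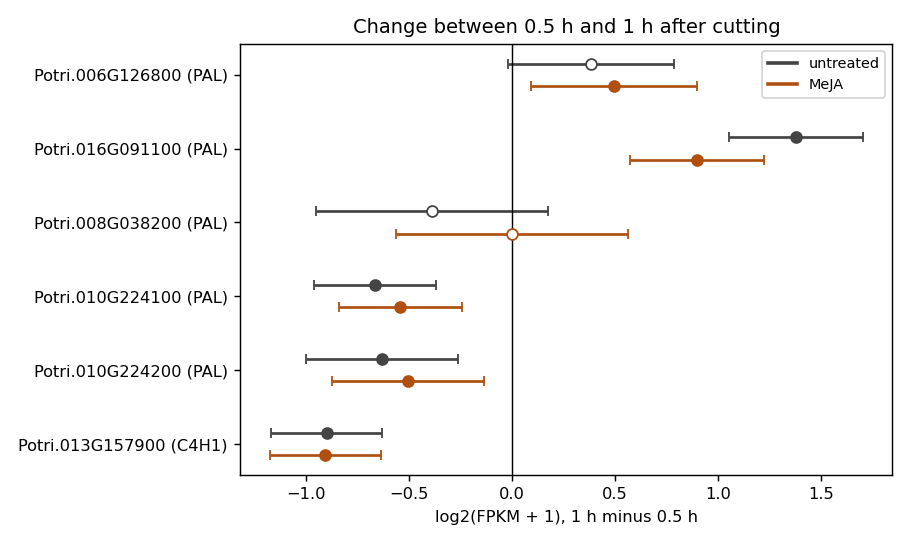
Change of each locus between 0.5 h and 1 h after cutting (horizontal axis, log2(FPKM + 1) at 1 h minus 0.5 h) in untreated and MeJA cuttings. Points are limma estimates from 2 libraries per group, bars are 95% confidence intervals, and filled points passed an adjusted p of 0.05. Potri.016G091100 lies at 1.38 and 0.90, and C4H1 at -0.90 and -0.91.

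Over both treatments together, with 4 libraries at each time, 5 of the 6 loci were called, 2 upward and 3 downward, where 60.2% of tested genes were called, 19.3% upward and 40.9% downward. Potri.016G091100 rose by 1.14 ± 0.13 on the log2 scale (SE; limma adjusted p = 2.65e-05) and Potri.006G126800 by 0.44 ± 0.13 (limma adjusted p = 0.0109). C4H1 fell by 0.90 ± 0.084 (limma adjusted p = 8.4e-06), Potri.010G224100 by 0.60 ± 0.095 (limma adjusted p = 0.000294) and Potri.010G224200 by 0.57 ± 0.11 (limma adjusted p = 0.00153). The 4 libraries of 0.5 h did not overlap with the 4 of 1 h for Potri.016G091100, C4H1 and both chromosome 10 loci, 4 of the 6, against 55.4% of tested genes. For Potri.006G126800 the times overlapped, at 151 to 183 and 178 to 274 FPKM. Potri.008G038200, at -0.19 ± 0.17, was not called (limma adjusted p = 0.356), but was without MeJA 1 h replicate 1, at -0.39 (limma adjusted p = 0.0208). The median tested gene moved by -0.17. After median centring the same 5 loci were called in the same directions as before.

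The PAL transcript pool was larger at 1 h, and a larger share of it came from 1 locus. Summed over the 5 PAL loci, the level was 541 and 490 FPKM in the untreated libraries of 0.5 h and 676 and 867 FPKM in the 1 h libraries. With MeJA it was 620 and 520 FPKM at 0.5 h and 856 and 706 FPKM at 1 h. Every library of 1 h was above every library of 0.5 h. This sum is a description of the list and was not tested.

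Potri.016G091100 made up 34.1% ± 2.6 of the PAL sum at 0.5 h and 52.8% ± 4.4 at 1 h (SD, n = 4), over both treatments. In untreated cuttings its share went from 31.7% and 32.2% at 0.5 h to 56.8% and 55.3% at 1 h. With MeJA the shift was smaller, from 37.1% and 35.5% to 46.7% and 52.3%. The difference between the 2 shifts was not tested. Potri.006G126800 held 30.2% ± 0.74 and then 28.8% ± 2.4 (SD, n = 4), as means over both treatments. Its share was 30.8% in both untreated 0.5 h libraries and 26.4% and 27.8% in the untreated 1 h libraries, both lower. With MeJA it was 29.5% and 29.6% at 0.5 h and 32.0% and 28.9% at 1 h, on either side of the earlier values. The share held by Potri.010G224100 went from 20.6% ± 1.4 to 9.45% ± 0.54, that of Potri.008G038200 from 12.3% ± 0.72 to 7.69% ± 2.1 and that of Potri.010G224200 from 2.81% ± 0.30 to 1.28% ± 0.064. The shares of these 3 loci were lower in each library of 1 h than in each library of 0.5 h. Shares add up to the whole, so the rise of Potri.016G091100 lowers the other shares by construction. For Potri.008G038200 a lower share is not a fall in level, as its change over both treatments was not called (limma adjusted p = 0.356).

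The PAL sum and C4H1 moved apart. The PAL sum was 2.53 to 2.69 times the C4H1 level in the 4 libraries of 0.5 h and 6.27 to 8.14 times in the 4 of 1 h. The ratio of Potri.016G091100 to C4H1 alone went from between 0.814 and 0.983 at 0.5 h to between 3.38 and 4.50 at 1 h. Identifiers beyond the first part of chromosome 17 were not analysed here, so other C4H loci that may lie there are not part of these ratios. The ratios compare transcript levels per length and say nothing of the amount of enzyme.

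**Figure D3:**
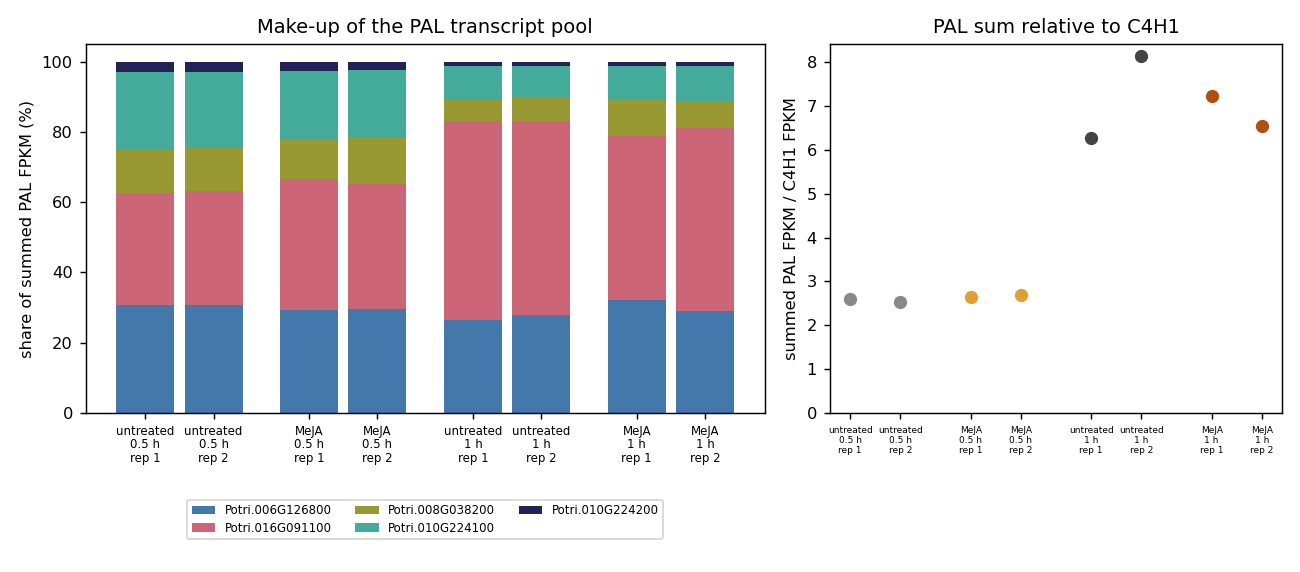
Left, share of each PAL locus in the summed PAL level (vertical axis, percent of summed FPKM) in each of the 8 libraries. Right, summed PAL FPKM divided by C4H1 FPKM in the same libraries. The share of Potri.016G091100 is 31.7% to 37.1% at 0.5 h and 46.7% to 56.8% at 1 h, and the ratio goes from 2.53 to 2.69 to 6.27 to 8.14.

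The next comparison asked whether MeJA altered the levels of these loci at either time. At 0.5 h none of the 6 loci passed in limma, 0 also had an unadjusted p under 0.05, and 0% of all tested genes were called, with 7.8% at an unadjusted p under 0.05. The 2 loci whose libraries did not overlap were Potri.016G091100 and Potri.008G038200, 2 of 6 against 36.5% of tested genes. Potri.016G091100 was at 230 and 185 FPKM in the MeJA libraries and at 171 and 158 in the untreated ones, a log2 difference of 0.32 with a 95% confidence interval of -0.0015 to 0.65 (limma adjusted p = 0.641). For C4H1 the difference was 0.08, with an interval of -0.19 to 0.35 (limma adjusted p = 0.928). Over the 6 loci the intervals at 0.5 h lay between -0.48 and 0.68.

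At 1 h again 0 of the 6 loci passed in limma, as did 0% of tested genes. An unadjusted p under 0.05 was found for 0 of the 6 and for 5.93% of tested genes. No locus was without overlap between MeJA and untreated libraries, against 36% of tested genes. Potri.008G038200 had the largest of the 6 differences, with 91.2 and 52.5 FPKM in MeJA cuttings and 40.1 and 58.5 in untreated ones, a log2 difference of 0.51 with an interval of -0.057 to 1.07 (limma adjusted p = 0.872). The MeJA library at 91.2 FPKM set this value, and without it the difference was 0.11. For Potri.016G091100 the difference was -0.16, with an interval of -0.48 to 0.16 (limma adjusted p = 0.973). For C4H1 it was 0.08, with an interval of -0.19 to 0.34 (limma adjusted p = 0.991).

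Over both times, 0 of the 6 loci and 0% of tested genes passed in limma. An unadjusted p under 0.05 was found for 0 of the 6 and for 3.66% of tested genes. The differences ran from -0.05 to 0.31 and their intervals from -0.30 to 0.70. An absolute difference of 1 on the log2 scale lay outside the interval of every locus at either time, except that of Potri.008G038200 at 1 h. These intervals bound the MeJA differences and do not show that they were zero.

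**Figure D4:**
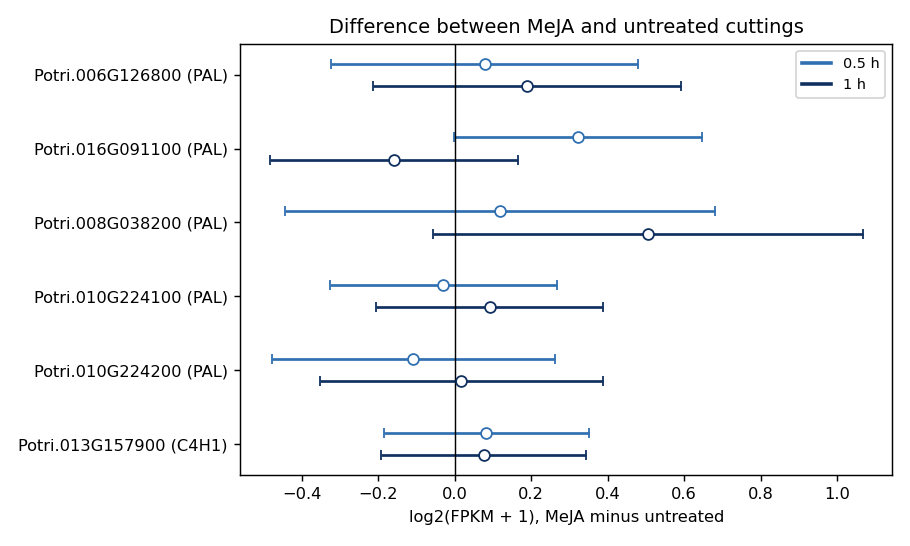
Difference of each locus between MeJA and untreated cuttings (horizontal axis, log2(FPKM + 1), MeJA minus untreated) at 0.5 h and 1 h. Points are limma estimates from 2 libraries per group and bars are 95% confidence intervals. All points are open, as no locus passed an adjusted p of 0.05, and the widest interval is that of Potri.008G038200.

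Whether the change over time differed with MeJA was tested as an interaction. None of the 6 loci passed in limma, and 0% of tested genes were called. At an unadjusted p under 0.05 stood 1 of the 6, Potri.016G091100, against 9.32% of tested genes. Its change with MeJA was lower than its change without by 0.48 on the log2 scale, with an interval of -0.94 to -0.024 for MeJA minus untreated (limma adjusted p = 0.507). It was the higher of the groups with MeJA at 0.5 h, at a mean of 207 ± 32 FPKM against 165 ± 9.5, and the lower at 1 h, at 385 ± 22 against 432 ± 68 (SD, n = 2), where the libraries overlapped. For C4H1 the interaction was -0.01 ± 0.17 (SE; limma adjusted p = 0.994), with an interval of -0.39 to 0.37.

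Transcript isoforms were listed for Potri.008G038200 and C4H1, 2 each, and a single transcript for each of the other 4 loci. Isoform 1 of C4H1 held 53.3% to 54.9% of the gene over the 8 libraries. Both C4H1 isoforms fell in untreated cuttings when all 47164 transcripts that passed the filter were tested, isoform 1 by 0.89 on the log2 scale (limma adjusted p = 0.000268) and isoform 2 by 0.89 (limma adjusted p = 0.00024). Isoform 1 of Potri.008G038200 held 52.3% to 56.5% of the gene, and neither isoform passed at any comparison. Shares so level from library to library are estimates by the authors' quantification, and how it divided reads between isoforms is not given in the sources used here.

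Other lignin pathway genes were read from a list of 15 loci for the steps after C4H, set down from knowledge of Populus trichocarpa and not annotated by the files. All 15 passed the filter. In untreated cuttings 2 of the 15 rose, 6 fell and 7 did not pass, where 15.4% of all tested genes rose and 33.2% fell. With MeJA 2 rose, 8 fell and 5 did not pass, against 15.2% and 28.1% of tested genes. Over both treatments 3 rose, 8 fell and 4 did not pass, against 19.3% and 40.9%, with a median change of -0.22 on the log2 scale, against -0.17 for all tested genes. The 3 that rose over both treatments were Potri.001G036900, by 0.82 (limma adjusted p = 0.000154), Potri.003G059200, by 0.70 (limma adjusted p = 0.00185), and Potri.001G304800, by 0.38 (limma adjusted p = 0.0197). Potri.001G036900 went from 142 ± 14 to 277 ± 65 FPKM in untreated cuttings (SD, n = 2). The deepest falls of the list were those of Potri.006G033300, by 0.67 (limma adjusted p = 8.89e-05), and Potri.005G117500, by 0.65 (limma adjusted p = 6.06e-05). After median centring, 3 loci rose and 6 fell over both treatments, the 3 that rose being the same. In untreated cuttings 3 then rose and 2 fell, and with MeJA 2 rose and 4 fell. For MeJA at either time 0 of the 15 passed in limma.

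The genes whose pattern over the 8 libraries was most like that of each locus were found among 15398 genes, the 6 loci themselves left out, by the root mean square difference of log2 values centred on each gene's mean. For Potri.016G091100 they were Potri.001G459700, at 0.07, which went from a mean of 11.5 FPKM at 0.5 h to 27.0 at 1 h, and Potri.015G023200, at 0.0923, which went from 42.0 to 89.8 FPKM. For C4H1 they were Potri.001G272700, at 0.0563, which went from 33.8 to 18.0 FPKM, and Potri.009G106600, at 0.0602, which went from 23.9 to 11.5 FPKM. The median distance of all candidates was 0.69 from Potri.016G091100 and 0.41 from C4H1. The nearest genes out of 15398 lie below the median by selection, so this gap is not a test of likeness. The files give none of these genes a name.

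The closest genes to Potri.006G126800 were Potri.005G105200 (0.073) and Potri.013G092000 (0.0749), and those to Potri.010G224100 were Potri.013G120900 (0.0579) and Potri.010G038900 (0.0626). For Potri.010G224200 they were Potri.016G056100 (0.0739) and Potri.014G148700 (0.0897), between which its neighbour Potri.010G224100 lay at 0.0769. Potri.008G038200 had no gene as near, with Potri.008G168700 at 0.143 and Potri.001G371500 at 0.153. Among the 6 loci themselves, C4H1 lay at 0.17 from Potri.010G224100 and at 1.03 from Potri.016G091100, and 4.97% and 95.1% of the candidates lay closer to C4H1 than these.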

How the data were processed

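RNA-seq libraries of 8 samples were grouped by the submitters' labels. The authors deposited 1 table per library with values per transcript; the unit is stated neither per the file headers nor per the labels, and was taken to be FPKM because the deposited values are not whole and sum to between 549538 and 577002. Per the submitters' processing notes the tools included Bowtie2 2.2.3 and HISAT2 2.1.0, without a role. The quantifier, genome build, annotation and strand setting were not found in those notes or labels. Read counts were not used here and absolute depth is unknown. Relative depth was read from the most frequent ratio of low values of genes with 1 transcript.

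Transcripts were summed per gene and a gene was kept where 2 or more libraries reached 1 FPKM (24347 of 36385). log2(FPKM + 1), which understates changes of low genes, was fitted with limma 3.58.1 (R 4.3.3, trend and robust moderation). The 4 group means gave 5 contrasts, and an additive model the effects over both treatments and both times. P-values were adjusted by Benjamini-Hochberg over all tested genes. The fit was run on simulated data whose spread was drawn from its own model, which checks the code and not the calls made here. Alternatives were other scalings, filters, pseudocount (0.1) and prior, a replicate block, each library left out, a summed neighbouring pair, and transcripts. All members are described; like genes are the 2 nearest per member with a mean of at least 5 FPKM. Members and lists were chosen with earlier results of these data known. Sequences were not used here.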

Additional observations from a re-analysis of the deposited data

How the results depend on the processing

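Over 728 repeats of the log2 differences of the 6 loci, 667 kept direction and side of the threshold, and 0 of the 38 that turned were called in the new direction. Many of these repeats could not turn. The filters, the prior and the replicate block leave the log2 differences as they were. So does leaving out a library of a group that a contrast does not use, and so do transcripts for loci with a single one. The repeats are thus not independent checks. No change over time that was called turned direction. The 5 time changes that turned were all of Potri.008G038200 with MeJA. The number of loci called with MeJA over time was 3 without a filter and 3 with a plain variance prior, where the fold changes are the same and only the test differs, and 2 to 5 when each library was left out. It was 3 to 4 in untreated cuttings, 5 to 6 over both treatments and 0 to 0 for each MeJA difference and the interaction. With 1 library left in a group, that library is assumed to vary like the others.

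With transcripts in place of genes, 20126, 17146 and 26069 of the 47164 tested changed over time (untreated, MeJA, both). Among genes these were 11830, 10546 and 14651 of 24347. For MeJA at 0.5 h, 2 transcripts differed. Leaving out each library gave 7890 to 11526, 7272 to 10863 and 12982 to 13796 genes over time, and 0 to 1 for MeJA at 0.5 h, 0 to 46 at 1 h, 0 to 0 over both times and 0 to 9 for the interaction. Leaving out MeJA 1 h replicate 2 gave the 46 and the 9.

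Signs that turned were of differences that were not called. Potri.008G038200 over time with MeJA was 0.029 after quantile normalization, 0.14 after median centring and 0.015 for isoform 1. Potri.010G224200 for MeJA at 1 h was -0.017 after quantile normalization and -0.019 after median centring, and over both times 0.022 in the summed pair. C4H1 was 0.031 for the interaction after quantile normalization. When each library was left out, the time change of Potri.008G038200 with MeJA ran from -0.39 to 0.39. For MeJA at 0.5 h the ranges were -0.044 to 0.20 for Potri.006G126800, -0.16 to 0.099 for Potri.010G224100, -0.29 to 0.071 for Potri.010G224200 and -0.056 to 0.22 for C4H1. For MeJA at 1 h they were -0.029 to 0.41 for Potri.006G126800, -0.32 to 0.0012 for Potri.016G091100, -0.029 to 0.21 for Potri.010G224100 and -0.17 to 0.21 for Potri.010G224200. Over both times they were -0.030 to 0.19 for Potri.016G091100, -0.030 to 0.095 for Potri.010G224100 and -0.13 to 0.039 for Potri.010G224200. For the interaction they were -0.11 to 0.33 for Potri.006G126800, -0.0052 to 0.78 for Potri.008G038200, -0.0077 to 0.25 for Potri.010G224100, -0.066 to 0.32 for Potri.010G224200 and -0.14 to 0.13 for C4H1.

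Same-numbered replicates did not deviate together over all tested genes (correlations of -0.116 to 0.0328). With 2 libraries per group, this cannot decide whether the numbers pair the libraries. With the replicate block, 4 loci were called in untreated cuttings, 4 with MeJA and 5 over both treatments, and 11465, 10132 and 14333 genes in all, and the only call of a locus it changed was that of Potri.006G126800 with MeJA (limma adjusted p = 0.064). Where a call changed, the cause was not tested beyond what the setting does by construction. Limits set by read depth could not be measured without counts.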
